A study of Arabidopsis thaliana with 12 samples.

Results

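A group of 247 probe sets, of 22746 measured, was lower in wild type Arabidopsis seedlings after chitooctaose and started from similar levels in both genotypes in water. Chitooctaose is a soluble chain of chitin sugars, and chitin is the main polymer of fungal cell walls. The members were chosen by their measured values. The rule took probe sets whose mean in wild type with chitooctaose lay at least 0.585 log2 units (1.5-fold) below both wild type water and mutant water, whose 3 wild type chitooctaose arrays all lay below the 3 wild type water arrays, and whose water means differed by at most 0.585 between genotypes. It left out genes with symbols starting CYP (P450), EXPA (expansin) or XTH, and 8 further genes by symbol. The decrease in wild type, the water levels and the gap between wild type with chitooctaose and mutant water are therefore descriptions of the choice, and no test of them is given. Of the 12 arrays the rule used 9. The 3 arrays of the mutant with chitooctaose played no part in it.

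The study compared 4 groups with 3 arrays each. These were wild type Col-0 with chitooctaose, wild type Col-0 with water, and the same treatments of a Col-0 line carrying a mutation in the chitin receptor, for which the labels give no allele. All plants were whole seedlings grown 14 days in liquid MS medium in constant light at 23 degrees. Treated seedlings received chitooctaose for 30 minutes at a final concentration labelled 1 um, read here as micromolar. The series title names the receptor as a LysM receptor-like kinase. The mutant is represented by 1 line, so its background and the mutation cannot be told apart. The replicates are titled biological, but nothing says whether they came from separate cultures or days, so p-values measure only the spread between these arrays.

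In the textbook account, chitin fragments are bound outside the cell by receptors with LysM domains, and a receptor kinase then starts a calcium influx, an oxidative burst, MAP kinase signalling and a fast change in transcript levels. The genes that rise, such as WRKY factors and defence enzymes, are the better known side of this response. Transcripts that go down are often tied to growth, hormone balance and metabolism. A transcript can decline no faster than its RNA is degraded, so those lowered within minutes are short-lived ones.

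Of the 247 members, 109 probe sets named 1 gene (108 genes, with AT5G54130 measured by 2 probe sets), 1 named several and 137 carried no gene in the annotation. A single gene was named for 44.1% of the members and for 59.4% of all probe sets. Members without a gene name count in every total below, and 3 of them are given by probe set identifier. Probe sets that the array design marks as able to bind several transcripts (suffix s_at or x_at) made up 2.83% of the members and 4.66% of all probe sets. The members were brighter than most of the array. Their median intensity in wild type water was 389, with a range of 15.3 to 6730, against a median of 194 over all probe sets. Intensities in wild type water under 100 were found in 8.5% of members and 36.8% of all probe sets.

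The steps of the rule show how much the mutant water arrays weighed. In wild type, 668 probe sets had the decrease and the separation of arrays. Only 274 of these also lay 0.585 below mutant water. Of the 274, 23 failed the water gap alone, and 4 more (AT2G28200, AT3G07350, AT5G61590 and GH3.3) were left out by symbol. The opposite rule, for probe sets raised from similar baselines, found 822.

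Whole seedlings hold many cell types, and fewer cells of a type cannot be told apart from less RNA per cell in them. Defining transcripts of both shoot and root were bright. Rubisco activase RCA had mean intensities of 14400 in wild type water, 15300 in wild type with chitooctaose, 14600 in mutant water and 14000 in the mutant with chitooctaose. The root glucosidase BGLU23 (PYK10) had 9850, 9530, 9790 and 9790 in the same order. The root hair expansin EXPA18 was higher in wild type water, at 642, than in the other groups, at 428, 413 and 404, and the root hair expansin EXPA7 had 196 against 127, 119 and 114. The part of root hair amount in the members' values was not tested. Array medians lay between 177.5 and 200.5, and the first wild type chitooctaose array had the largest spread around its group's means (SD 0.21 log2 units, against 0.14 to 0.18 on the other arrays).

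All changes below are differences of mean log2(intensity + 16). Over the members the wild type difference, chitooctaose minus water, had a median of -0.88, quartiles of -1.08 and -0.70, and a range of -2.39 to -0.59. Over all probe sets the median was -0.04. The difference was 2-fold or more in 75 members and 4-fold or more in 5. Across the array, 10.1% of probe sets were called lower and 8.82% higher in wild type at an adjusted p under 0.05, and 244 of the 247 members were among those called lower. That last count follows from the rule, and nothing is read from it. The 3 exceptions were AT1G32830, AT4G27590 and AT1G64405. In water, mutant minus wild type had a median of -0.02 over the members and a range of -0.55 to 0.58.

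**Figure D1:**
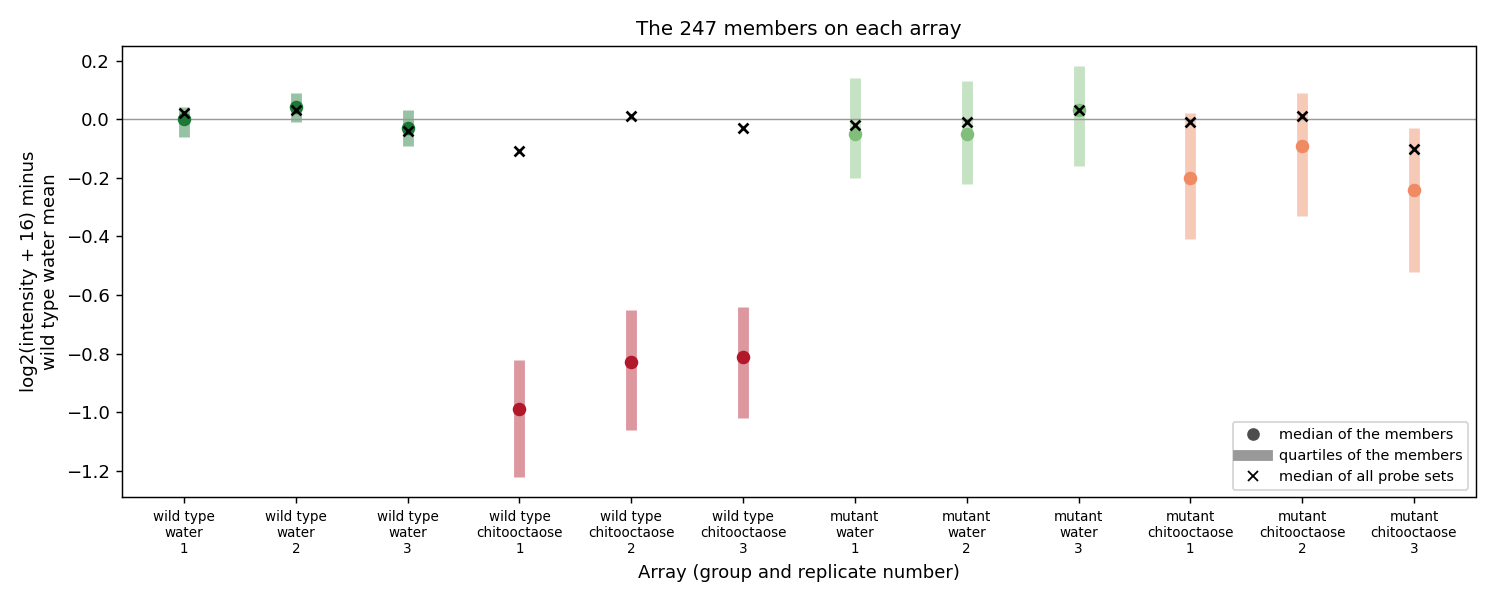
Median (points) and quartiles (bars) of the 247 members on each of the 12 arrays, in log2(intensity + 16) relative to the wild type water mean, with the median of all 22746 probe sets as crosses. The 3 wild type chitooctaose arrays have medians of -0.99, -0.83 and -0.81, and the 3 mutant chitooctaose arrays have -0.20, -0.09 and -0.24.

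The plot of the members by array shows a whole-group displacement on the wild type chitooctaose arrays, which the rule required, and a small one on the mutant chitooctaose arrays, which it did not see. Relative to the wild type water mean, the median member lay at -0.20, -0.09 and -0.24 on the mutant chitooctaose arrays. On the mutant water arrays it lay at -0.05, -0.05 and 0.03. The medians of all probe sets on the mutant chitooctaose arrays were -0.01, 0.01 and -0.10. The third of these arrays was thus dimmer as a whole. So was the first wild type chitooctaose array, with a median of -0.11 over all probe sets. Without that array the rule found 204 probe sets, and 179 of them were members (72.5% of the members).

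Among named members the most negative wild type difference was that of AT1G04770, a tetratricopeptide repeat protein of the SDI family known from sulfur deficiency. It had intensities of 2058, 2049 and 2203 in wild type water and of 367, 431 and 396 in wild type with chitooctaose. Mutant water gave 2267, 2396 and 2601, and mutant chitooctaose gave 1580, 1841 and 1730. The treated wild type arrays stand far below all others, and the treated mutant arrays lie in between, below every water array. The wild type difference was -2.36 ± 0.08 (SE of the fit, n = 3 arrays per group) and the mutant change was -0.49 ± 0.08 (limma adjusted p = 0.0036), so AT1G04770 fell in the mutant too, by a smaller amount.

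AT5G03230 encodes a protein with the DUF584 domain of the S40 family of senescence regulators. It gave 1191, 1248 and 1022 in wild type water, 210, 311 and 282 in wild type chitooctaose and 886, 810 and 854 in mutant water. The mutant with chitooctaose gave 1273, 1296 and 1146, above all 3 mutant water arrays and overlapping the range of wild type water. Its wild type difference was -2.06 ± 0.12, whereas it rose in the mutant by 0.53 ± 0.12 (limma adjusted p = 0.025), a call that was lost in 5 of the 6 fits that left out 1 mutant array. The other members with the same domain did not rise. AT5G60680 had 3273, 3290 and 3122 in wild type water and 1194, 1385 and 1287 with chitooctaose, and in the mutant 2361, 2634 and 2676 in water and 2217, 2477 and 2386 with chitooctaose, where the groups overlap. AT3G45210 had a wild type difference of -0.90 and a mutant value of -0.21, which did not pass.

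AT5G59080, the next of the named members, gave 348, 402 and 406 in wild type water, 88.5, 89.5 and 124 in wild type chitooctaose, 349, 357 and 400 in mutant water and 215, 248 and 249 in the treated mutant. The treated mutant arrays lie between the water arrays and the treated wild type arrays with no overlap. The mutant change was -0.60 ± 0.12 (limma adjusted p = 0.012) beside a wild type difference of -1.79.

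Among the 24 named members with the most negative wild type difference, from -2.36 to -1.16, the mutant change ranged from -0.70 to 0.53 with a median of -0.10. It was called lower in 6 and higher in 1, and 17 did not pass, where 0.769% of all probe sets were called lower and 0.721% higher. For all 24, every treated mutant array lay above every treated wild type array, which the rule favours by asking for a high mutant water level. The 4 with the largest absolute mutant values were AT2G41250, AT5G20790, AT5G59080 and AT5G03230. The smallest were those of AT3G23880, AT1G21920, AT5G65660 and AT2G40230, at 0.01, 0.02, -0.03 and -0.09.

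**Figure D2:**
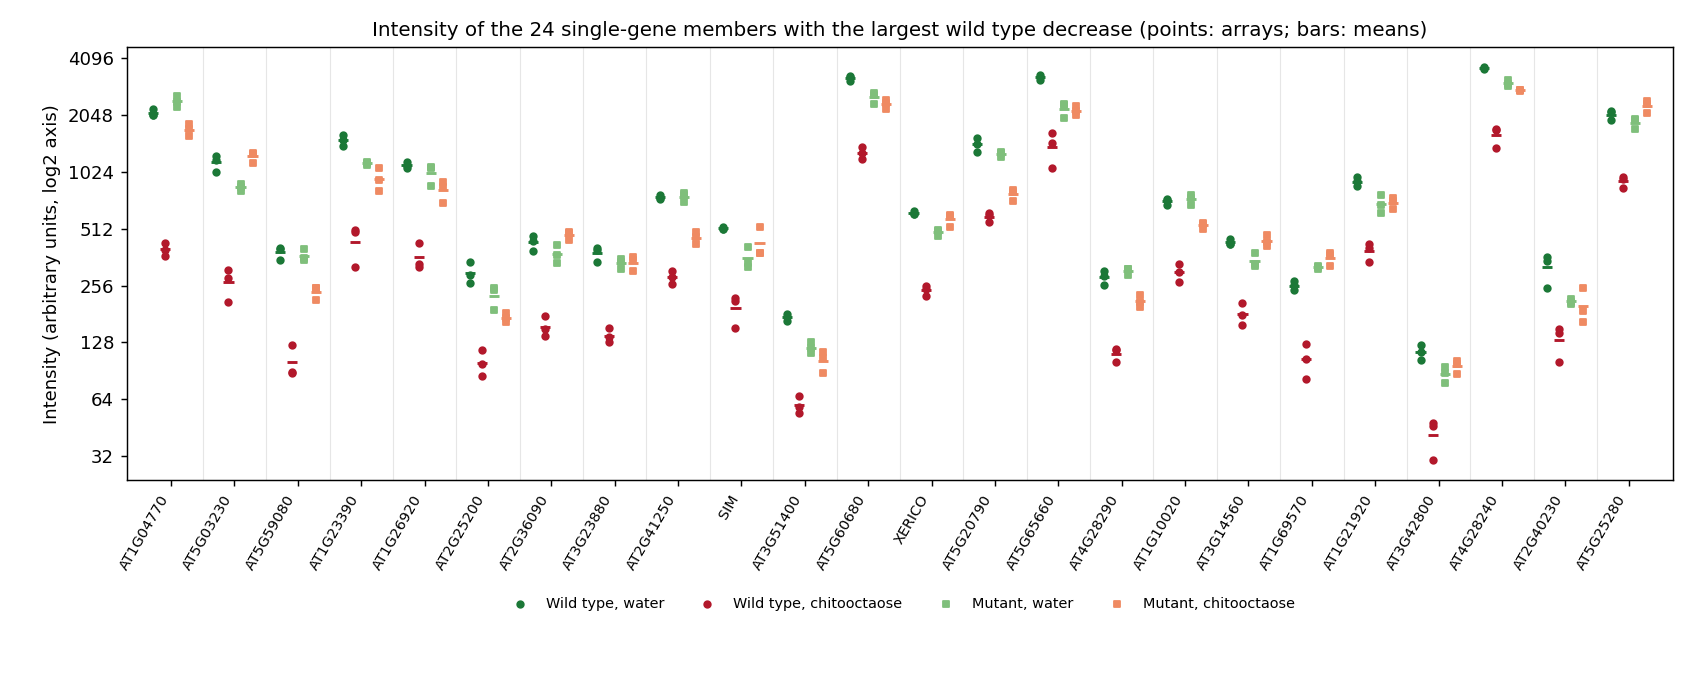
Intensity on a log axis of the 24 named members with the most negative wild type difference, with 1 point for each of the 12 arrays and bars at the group means (n = 3). In all 24 the treated wild type arrays are the lowest group, and the treated mutant arrays lie above them.

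The members are ordered below by protein family, a grouping made after the values were seen that serves only the description. Family counts cover members only. They miss AT3G07350 (DUF506), GH3.3 (GH3), AT5G61590 (ERF) and AT2G28200 (zinc finger), which met the criteria but were left out by symbol. Genes for ubiquitin ligase parts come first. Ligase genes did not all go down. In a list of 17 RING finger, U-box and F-box ligase genes matched by symbol, 3 fell and 5 rose in wild type (10.1% and 8.82% of all probe sets). The 3 that fell were the RING finger genes XERICO, BRH1 and ATL8. All 5 that rose were U-box (PUB) genes, with PUB23 at 2.92 and PUB24 at 2.79. In the mutant 0 of the 17 were called at an adjusted p under 0.05. F-box proteins pick the substrates of SCF ubiquitin ligases, and 5 members encode one. AT1G23390, the Kelch-repeat F-box protein known to target chalcone synthase, had 1506, 1604 and 1406 in wild type water, 320, 490 and 504 in wild type chitooctaose, 1145, 1119 and 1162 in mutant water and 925, 1070 and 816 in the treated mutant. Its treated wild type arrays are far below the rest, and its treated mutant arrays lie just below those of mutant water, without overlap. The mutant value of -0.29 ± 0.13 did not pass (limma adjusted p = 0.45), against a wild type difference of -1.77.

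The F-box gene AT2G36090 gave 470, 441 and 392 in wild type water, 176, 150 and 139 in wild type chitooctaose, 418, 338 and 372 in mutant water and 491, 445 and 487 in the treated mutant. Its treated mutant arrays were all above mutant water, and the difference of 0.33 ± 0.10 did not pass (adjusted p = 0.18). AT3G23880, also an F-box gene, read 396, 341 and 405, then 128, 153 and 136, in wild type water and chitooctaose, and 312, 343 and 355, then 348, 364 and 304, in the mutant, where the groups overlap. The other two were HWS, the F-box protein HAWAIIAN SKIRT, with wild type and mutant values of -0.71 and -0.07, and AT3G07870, with -0.60 and -0.16. None of the 5 was called in the mutant.

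Single-subunit RING ligases were represented by 4 members, with wild type differences from -1.31 to -0.63 and none called in the mutant. XERICO, a RING-H2 protein known to raise abscisic acid levels, gave 615, 634 and 611 in wild type water, 244, 224 and 255 in wild type chitooctaose, 471, 504 and 497 in mutant water and 595, 605 and 525 in the treated mutant. The treated wild type arrays lie far below the other groups, while the treated mutant arrays lie above those of mutant water and below those of wild type water. The wild type difference was -1.31 ± 0.08, and the mutant value of 0.22 ± 0.08 did not pass (limma adjusted p = 0.28). The remaining RING genes were AT1G49200 (-0.89 in wild type, 0.31 in the mutant), AT1G14200 (-0.67 and 0.05) and AT5G47610 (-0.63 and -0.16).

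Nuclear regulators followed. SIM, the founding SIAMESE inhibitor of cyclin-dependent kinases that turns trichome cells from division to endoreduplication, had 511, 520 and 512 in wild type water and 153, 219 and 211 in wild type chitooctaose. In the mutant it had 335, 320 and 412 in water and 380, 526 and 381 with chitooctaose. The treated wild type arrays lie below all others, and the mutant groups overlap. SIM had 1 of the widest water gaps, with mutant minus wild type at -0.52, and the mutant value of 0.25 ± 0.14 did not pass (adjusted p = 0.56).

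PLATZ proteins are plant-specific zinc-dependent DNA-binding proteins, and 3 members encode them with nearly equal values. AT1G32700 had -0.96 in wild type and -0.11 in mutant seedlings, AT1G76590 had -0.95 and 0.09, and AT1G21000 had -0.81 and -0.03. For AT1G21000 the arrays read 1112, 1199 and 1060 in wild type water, 538, 682 and 697 in wild type chitooctaose, 1155, 1185 and 1211 in mutant water and 1173, 1223 and 1080 in the treated mutant. Only the treated wild type arrays stand apart, and the other 3 groups overlap.

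The 7 members from better known transcription factor families came from 5 families, with wild type differences from -1.20 to -0.73, and none was called in the mutant. AT1G69570, a cycling Dof factor of the photoperiod pathway, had 258, 269 and 241 in wild type water, 81.7, 105 and 125 in wild type chitooctaose, 314, 324 and 321 in mutant water and 371, 383 and 325 in the treated mutant. Here the treated mutant was the brightest group, though its difference of 0.16 from mutant water did not pass (limma adjusted p = 0.71). AT1G29160, the Dof factor COG1 of phytochrome signalling, had a wild type difference of -0.89 and a mutant value of -0.07. The AP2/ERF factors AT1G36060 and AT2G44940 had wild type differences of -0.87 and -0.81 with mutant values of -0.42 (adjusted p = 0.055) and -0.35. The GRAS factor AT3G50650 had -0.73 and -0.39, the MYB-like factor AT3G25790 had -0.88 and -0.13, and bZIP43, which was dim at 80.4, 37 and 57.1 in wild type water, had -0.89 ± 0.22 and -0.19. In 6 of these 7 every treated mutant array lay above every treated wild type array, and bZIP43 was the exception.

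Families of less clear function were present as pairs of members, for DUF506 only because AT3G07350 was left out by symbol. The DUF506 genes AT2G38820 and AT3G22970 had wild type differences of -0.99 and -0.89 and mutant values of -0.08 and 0.22. The FCS-like zinc finger genes AT1G74940 and AT2G44670, whose proteins bind the SnRK1 energy-sensing kinase in Arabidopsis, had -0.95 and -0.94 in wild type. In the mutant AT1G74940 had 0.14, while AT2G44670 fell by 0.45 ± 0.11 (limma adjusted p = 0.041). The DUF241 genes AT3G51400 and AT4G35690 had wild type differences of -1.33 and -0.68 and mutant values of -0.21 and -0.16.

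A small metabolic set held 3 UDP-glycosyltransferase genes, a GH3 family gene and a glutathione transferase gene. IAGLU, which joins glucose to the auxin indole-3-acetic acid, had 847, 834 and 758 in wild type water, 423, 415 and 348 in wild type chitooctaose, 706, 832 and 875 in mutant water and 689, 774 and 548 in the treated mutant. The treated wild type arrays are separate from the other 3 groups, which overlap. Its wild type difference was -1.01, and the mutant value of -0.27 did not pass (adjusted p = 0.41). UGT74F1, which glucosylates salicylic acid, had -0.67 and -0.17, and UGT85A4 had -0.61 and -0.14. AT1G48660, a GH3 family member and dim, had -0.62 and -0.38. GSTU22, a glutathione transferase, had -0.66 in wild type and -0.35 in the mutant (adjusted p = 0.061).

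Other members of known type were spread thinly. AT5G25280, a serine-rich protein, read 2119, 2144 and 1925 in wild type water, 843, 966 and 938 in wild type chitooctaose, 1933, 1947 and 1728 in mutant water and 2353, 2447 and 2092 in the treated mutant, whose arrays were all above mutant water. Its wild type difference was -1.16 and its mutant value of 0.29 did not pass (adjusted p = 0.10). AT4G28240, of the wound-responsive protein family, had -1.18 and -0.12. The glutaredoxin family member AT1G64500 had -0.63 and -0.17. AT5G54130, a calcium-binding protein of the endonuclease, exonuclease and phosphatase family, gave -0.70 and -0.66 in wild type by its 2 probe sets, and -0.12 and -0.14 in the mutant.

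The rule did not use the treated mutant, so the response there could be measured. Over the array, chitooctaose against water in the mutant gave 0.769% of probe sets called lower and 0.721% called higher. Of the 247 members, 39 were called lower (15.8%) and 3 higher (1.21%), and 205 did not pass. The share called lower is well above the background, and the share called higher is close to it. The members are brighter than most of the array. With the dimmest 40% of probe sets left out, 1.69% of the remaining probe sets and 47 members were called lower. The median mutant change was -0.14, with quartiles of -0.35 and 0.01 and a range of -1.19 to 0.53, beside -0.03 over all probe sets and -0.88 in wild type. At an unadjusted p under 0.05, 89 members were lower and 16 higher. Only 20 of the 39 changed by 0.585 or more.

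The same mutant arrays can also be compared without a model. All 3 treated mutant arrays lay below the 3 mutant water arrays for 95 members (38.5%), against 11.4% of all probe sets. They lay above for 21 members (8.5%), against 7.06%. Every treated mutant array lay above every treated wild type array for 220 members (89.1%), against 14.3% of all probe sets. The rule used the treated wild type arrays, so nothing is read from that last share. It also used the mutant water arrays and favours high values there. The shares below and above mutant water are therefore not independent of the choice. The median of treated mutant minus treated wild type was 0.69.

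The mutant water arrays entered both the rule and this comparison, so the choice and the mutant change are not independent. Among the 117 members with mutant water above wild type water the median mutant change was -0.17, with 29 called lower and 0 higher. Among the 130 others it was -0.10, with 10 lower and 3 higher. A choice made on the wild type arrays alone, added after the data were seen, uses none of the arrays in the mutant difference. The wild type arrays still enter the estimate of spread behind the mutant p-values, which all 12 arrays share. The calls are therefore not fully independent of this choice either. It gave 656 probe sets, of which 58 were called lower (8.84%) and 15 higher (2.29%), with a median of -0.05. The 409 of them that are no members had 19 lower (4.65%), 12 higher (2.93%) and a median of 0.01. On that choice both shares were above their backgrounds, with more called lower than higher.

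The median mutant change was -0.14 for the 75 members with at least a 2-fold wild type decrease and -0.14 for the 172 others. The share called lower was larger in the first set, at 19 of 75 against 20 of 172. That difference was not tested. The 822 probe sets raised in wild type from similar baselines had a median mutant change of -0.00, with 13 called lower (1.58%) and 14 higher (1.7%).

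**Figure D3:**
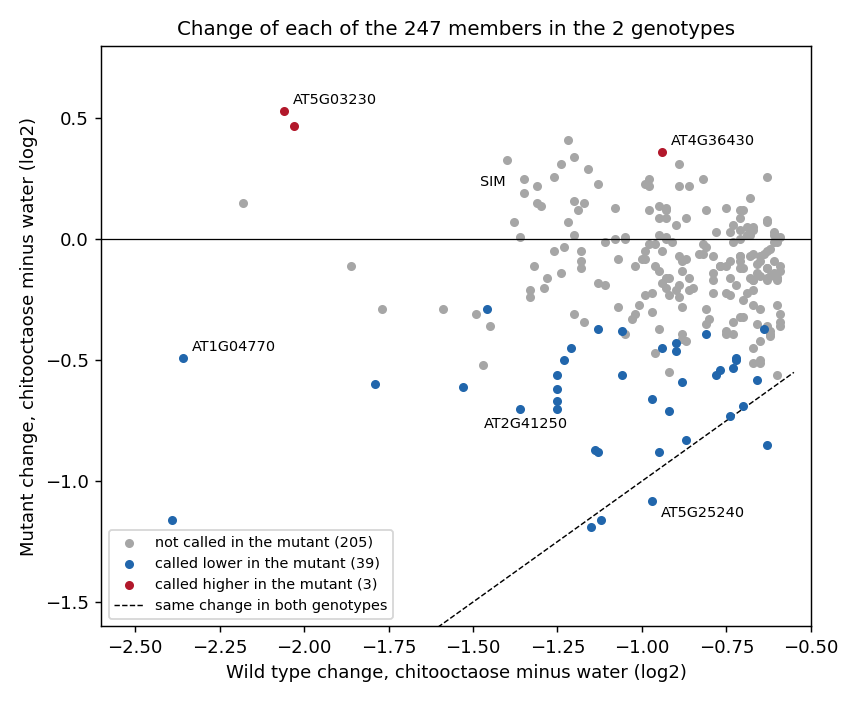
Mutant against wild type change (chitooctaose minus water, log2) for each of the 247 members, coloured by the call in the mutant, with the dashed line at equal change. Grey points (205) did not pass, 39 blue points were called lower, and 3 red points were called higher in the mutant; the limit of wild type values at the right is set by the rule.

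Members called lower in the mutant comprised 14 named by 1 gene and 25 not. The 4 with the most negative mutant change come first. AT5G25240 had 306, 298 and 291 in wild type water, 155, 153 and 127 in wild type chitooctaose, 319, 345 and 367 in mutant water and 139, 175 and 151 in the treated mutant. Chitooctaose arrays of both genotypes overlap and lie below every water array. It fell in the mutant by 1.08 ± 0.10 (limma adjusted p = 2.1e-05), beside a wild type difference of -0.97.

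AT4G33960 gave 1551, 1537 and 1464 in wild type water, 767, 847 and 853 in wild type chitooctaose, 1757, 1634 and 1723 in mutant water and 1021, 1047 and 800 in the treated mutant. AT3G21670, a nitrate transporter of the NRT1/PTR family, gave 528, 543 and 491, then 289, 320 and 305, in wild type, and 603, 669 and 669, then 394, 417 and 343, in the mutant. AT2G47440, a tetratricopeptide repeat protein, gave 916, 1018 and 790, then 450, 472 and 485, in wild type, and 1057, 1057 and 1056, then 675, 682 and 572, in the mutant. In each of these 3 the treated arrays of both genotypes lie below every water array, and mutant water was the brightest group. Their mutant changes were -0.83 ± 0.09, -0.73 ± 0.09 and -0.71 ± 0.09 (limma adjusted p = 7.7e-05, 0.00019 and 0.00045), with wild type differences of -0.87, -0.74 and -0.92.

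AT2G41250, of the haloacid dehalogenase-like hydrolase family, and AT5G20790 differed from these in having a clearly deeper decrease in wild type. AT2G41250 read 732, 742 and 775 in wild type water, 262, 285 and 304 in wild type chitooctaose, 707, 770 and 790 in mutant water and 423, 490 and 463 in the treated mutant. AT5G20790 read 1436, 1551 and 1313, then 553, 619 and 606, in wild type, and 1290, 1230 and 1314, then 804, 825 and 717, in the mutant. For both, the treated mutant arrays lie between treated wild type and all water arrays. Both fell in the mutant by 0.70 ± 0.08 (limma adjusted p = 0.00017 and 0.00014), with wild type differences of -1.36 and -1.25.

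The remaining named members called lower in the mutant were AT5G59080 and AT1G04770, described above, AT1G54740 (-0.54), AT4G28290 (-0.50), AT3G15570 of the NPH3 family (-0.46), AT1G10020 with a DUF1005 domain (-0.45), AT2G44670 (-0.45) and the glycine-rich protein gene AT2G05540 (-0.43). AT4G28290 gave 259, 305 and 286 in wild type water, 100, 116 and 118 in wild type chitooctaose, 312, 313 and 291 in mutant water and 197, 209 and 229 in the treated mutant. AT1G10020 gave 681, 727 and 734, then 267, 302 and 333, in wild type, and 773, 684 and 747, then 510, 540 and 549, in the mutant. In both, treated mutant arrays again lie between treated wild type and the water arrays. When each mutant array was left out in turn, AT2G47440, AT5G20790, AT5G25240, AT4G33960, AT3G21670, AT1G04770, AT2G05540 and AT2G41250 kept their calls every time, and the other 6 lost theirs in 2 to 5 of the 6 fits.

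Without mutant water replicate 3 the members called lower numbered 19, and without mutant water replicate 1 they numbered 24. The share of all probe sets called lower dropped as well in those fits, to 0.299% and 0.396%.

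**Figure D4:**
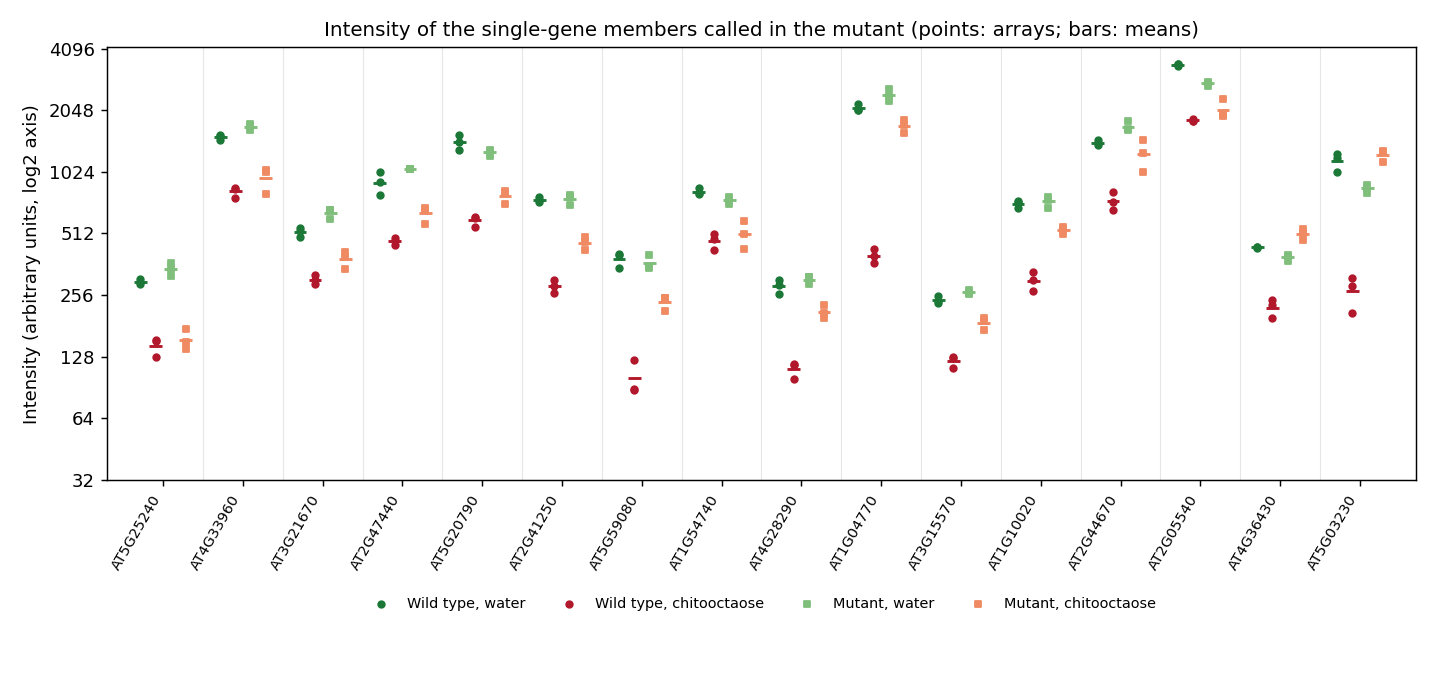
Intensity on a log axis of named members called in the mutant, with 1 point for each of the 12 arrays and bars at group means. For AT5G25240 the treated arrays of both genotypes overlap, and for AT5G03230 and AT4G36430 the treated mutant arrays lie above all 3 mutant water arrays.

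Unnamed probe sets held the most negative values in both genotypes. Probe set 249752_at had the most negative wild type difference of all members, -2.39 ± 0.08, with 698, 648 and 663 in water and 126, 109 and 108 with chitooctaose. In the mutant it gave 869, 881 and 916 in water and 385, 416 and 366 with chitooctaose, a change of -1.16 ± 0.08 (limma adjusted p = 8.3e-07). Its treated mutant arrays are far from both the water arrays and the treated wild type arrays.

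Probe set 258218_at had the most negative mutant change, -1.19 ± 0.09 (adjusted p = 2.4e-06), beside a wild type difference of -1.15 ± 0.09. It read 1876, 1875 and 1862 in wild type water, 710, 928 and 891 in wild type chitooctaose, 1766, 1828 and 1929 in mutant water and 801, 881 and 725 in the treated mutant. The water groups overlap, the treated groups overlap, and the treated arrays lie far below the water arrays in both genotypes.

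The 3 members called higher in the mutant were AT5G03230, described above, AT4G36430 and probe set 247696_at. AT4G36430, a class III peroxidase, had 441, 442 and 437 in wild type water, 197, 229 and 241 in wild type chitooctaose, 374, 402 and 399 in mutant water and 513, 536 and 477 in the treated mutant. The treated mutant was its brightest group and treated wild type its dimmest, without overlap. It rose in the mutant by 0.36 ± 0.09 (limma adjusted p = 0.047), and this call was lost whichever mutant array was left out. The second peroxidase among the members, AT2G18980, had -0.97 in wild type and -0.22 in the mutant. Probe set 247696_at had 836, 908 and 962, then 205, 212 and 207, in wild type, and 772, 822 and 886, then 1113, 1100 and 1234, in the mutant, where it rose by 0.47 ± 0.08 (adjusted p = 0.0053).

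Values near the thresholds were close together. Just inside the wild type decrease were AT3G06840 (-0.591), AT3G06530 (-0.592) and AT1G64405 (-0.596), and just outside were AT1G10320 (-0.584), AT5G45950 (-0.582) and AT5G10650 (-0.581). For the gap to mutant water, AT3G25790 (-0.59), AT2G05540 (-0.593) and AT1G14200 (-0.596) were inside, and AT5G07580 (-0.581), AT1G68440 (-0.575) and AT2G37950 (-0.575) outside. For the water gap, AT5G65660 (0.553), AT2G40230 (0.546) and SIM (0.521) were inside, and AT3G57160 (0.599), AT5G24580 (0.636) and AT4G10910 (0.777) outside.

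Lists of growth, hormone, metabolism and defence genes place the members in their surroundings. The lists were filled by matching gene symbols and synonyms, so their counts cover the matched genes and not whole families. Members such as AT1G49200 (RING finger) and AT3G25790 (MYB-like) are in no list. The lists held 220 measured genes, and 4 of these (SIM, XERICO, GSTU22 and AT3G21670) were members. Of the 220, 32 were called lower (14.5%) and 27 higher (12.3%) in wild type, where the array as a whole had 10.1% and 8.82%. In the mutant 4 were lower and 0 higher, where the array had 0.769% and 0.721%. Many lists are small, so 1 or 2 calls are near these shares. Auxin signalling and transport genes were lower in 4 of 13 and higher in 0, with the protein kinase gene WAG2 at -1.86 and IAA29 at -0.76. The gibberellin list held 5 genes, among them ATSLY1 beside SLY1, and a match by symbol does not make each a gibberellin gene. The 2 that fell were the gibberellin receptor genes GID1A (-0.50) and GID1C (-0.39). Both homeodomain genes in the lists fell, HAT2 at -1.08 and PHV at -0.40.

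Glucosinolate and glutathione genes fell in 5 of 19 and rose in 2, with GSTU25 at -0.80. A list drawn up for sugar starvation held mostly SWEET sugar transporter genes, so it does not measure a starvation response. Of its 19 genes, 5 fell in wild type (SIS, AKINBETA1, SWEET2, SWEET16 and SWEET17) and 2 rose. In mutant seedlings 2 of the 19 fell. In wild type and mutant, SIS had -1.85 and -0.91, and the sugar transporter gene SWEET2 had -0.48 and -0.39. SIS is no member because its level in mutant water was already lower than in wild type water, at -0.84. In nutrient uptake 3 of 12 genes fell and 3 rose in wild type. Photosynthesis genes fell in 0 of 30 and rose in 4, with a median of 0.06. Cell wall genes other than EXPA and XTH genes were even, with 6 lower and 6 higher of 62. This list still held expansin genes of the EXLA, EXLB and EXPB types. EXLA1 at 0.60 and EXLA3 at 1.03 were among its 6 higher genes. Among defence genes, WRKY factors fell in 0 of 7 and rose in 3, with WRKY53 at 4.59 and WRKY22 at 2.04. Immune receptors and partners fell in 0 of 3 and rose in 1, the receptor-like cytoplasmic kinase gene BIK1 at 1.27. The receptor kinase genes FER (0.17) and EFR (0.20) were not called. The bHLH genes fell in 2 of 14 and rose in 1, and the cell cycle genes fell in 1 of 4 (SIM) and rose in 1. A list of 3 other kinase genes (WAG2, PID2 and AT5G18610) had 1 lower, WAG2, and 0 higher. The 6 cytokinin genes, the 2 brassinosteroid genes, the 2 MYB genes and the single ethylene, light and clock genes in the lists had 0 calls in wild type.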

How the data were processed

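The deposited values of the 12 one-colour Affymetrix arrays are linear intensities, with 1 for each probe set. Trizol-extracted total RNA (8 ug) was turned into biotinylated cRNA, per the labels' protocols. The sources used here do not state how the authors scaled and summarised their intensities or treated background. The number of arrays limits the precision.

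From the deposited intensities log2(intensity + 16) was computed with no further scaling, so the fold of a dim probe set is understated. The 64 control probe sets were left out. The 4 group means were fitted in limma 3.58.1 (R 4.3.3), using eBayes with trend, 8 residual degrees of freedom and 8.3 prior ones. Calls are two-sided, with p adjusted by Benjamini-Hochberg across 22746 probe sets and a threshold of 0.05. An exact permutation of 3 against 3 arrays cannot give a p below 0.1. The fit was tested on simulated data. Tables and figures were made in Python 3.11.15 (pandas 2.3.3, matplotlib 3.10.9).

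The members, the gene lists, the alternatives and the naming rule were chosen with earlier results of these data known. Named are, among members with 1 gene, the 24 with the most negative wild type difference, up to 8 called in each direction in the mutant, the extremes among the 24, list members, 3 probe sets on each side of each threshold, and up to 2 others per list. The members grouped by protein family, the other named members called lower in the mutant, the 3 not called in wild type, the neighbours and the 3 unnamed probe sets were chosen after their values were seen. In the platform annotation 13513 probe sets have 1 gene, 503 several and 8730 none. All 109 members with 1 gene were found in the TAIR10.1 gene table. No coordinates are given, since no build is named for the arrays, and promoter and protein sequences were not analysed here. The receptor's own transcript was not used here as a check of the genotype labels. Alternatives were quantile normalization, median centring, other pseudocounts, a filter on dim probe sets, a replicate block, no trend, the mutant arrays alone, single arrays left out, and other thresholds or arrays for the choice of members.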

Additional observations from a re-analysis of the deposited data

Results flagged for a closer look

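These 3 members moved in opposite directions in the genotypes, with all treated arrays below water in wild type and above it in the mutant. They are 1.21% of the 247 members, close to the 0.721% of all probe sets called higher in the mutant. With 1 mutant array left out, the call was lost in 5 of 6 fits for AT5G03230 and in all 6 for AT4G36430. The mutant change was 0.53 for AT5G03230, 0.47 for probe set 247696_at and 0.36 for AT4G36430. The difference between the genotypes was not tested, since the rule fixed the direction in wild type.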

How the results depend on the processing

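Among the 247 members the number called lower in the mutant was 39, and it was 52 after quantile normalization, 52 after median centring, 48 on the mutant arrays alone and 26 without the mean-variance trend. It was 20 at 1.5-fold or more and 14 among members with 1 gene, both smaller by construction, and 58 for the 656 probe sets chosen on the wild type arrays alone. Leaving out each mutant array gave 19 to 36. The number called higher was 3, and it was 7 after quantile normalization, 6 after median centring, 1 without the trend, 0 at 1.5-fold or more, 15 for the choice on wild type arrays alone and 1 to 2 with an array left out; the cause was not tested. The median mutant change of -0.14 ranged from -0.17 to -0.11 with an array left out and was -0.05 for the choice on wild type arrays alone. With the replicate number as a replicate block 38 were lower, 37 of them among the 39, and 2 higher; correlations of same-numbered arrays between groups ran from -0.13 to 0.22, so the numbers were not taken to pair the samples. The rule found 353 members at a pseudocount of 1 (244 of them among the 247, or 69.1% of those found), 154 at a pseudocount of 64, 37 with decreases of at least 1, 656 on the wild type arrays alone, and 204 to 337 with an array left out. Of the genes in the lists, 8 were lower in the mutant after quantile normalization and 7 after median centring, and 5 were higher under each. Of the values of named genes under the alternatives, 418 kept direction and side of the threshold, 39 lost the call, 7 gained one and 10 changed sign, none of them called. Those 10 belong to 4 genes with values near 0: with an array left out, AT3G23880 ranged from -0.05 to 0.08, AT1G21920 from -0.05 to 0.10, AT2G40230 from -0.25 to 0.03 and AT5G65660 from -0.11 to 0.02, the last also at 0 after quantile normalization. Signal near background limits the dimmest members, such as bZIP43.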

Other observations

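Some members are neighbours on a chromosome. AT1G68490 and AT1G68500 have 0 genes between them in the gene table, with wild type differences of -0.71 and -0.81 and mutant values of 0.09 and -0.29. AT2G21180 and AT2G21185 have 1 gene between them, with wild type differences of -0.70 and -0.79 and mutant values of 0.12 and -0.17. None of these 4 mutant values passed the test. AT4G28240 and AT4G28290, with 4 genes between them, had wild type differences of -1.18 and -1.23, and only AT4G28290 was called in the mutant, where the difference between both genes was not tested.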
